A study of Homo sapiens with 27 samples.

Results

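The sestrins SESN1, SESN2 and SESN3, DDIT4, DEPTOR, TSC1, TSC2, RHEB, MTOR and RPTOR regulate or form the kinase complex mTORC1, and these 10 genes were taken by symbol from the 27115 genes listed in each library. Their RNA was measured by RNA sequencing in Karpas422, OCI-Ly1 and HBL1, 3 established cell lines of diffuse large B-cell lymphoma (DLBCL). Karpas422 belongs to the oxidative phosphorylation class of DLBCL, OCI-Ly1 to the germinal center B-cell class and HBL1 to the activated B-cell class. Each line carried a scrambled control hairpin (shCTRL) or 1 of 2 hairpins against SIRT3 (shSIRT3-1 and shSIRT3-2), a mitochondrial deacetylase, delivered by lentivirus with puromycin and YFP as markers. RNA was taken on day 8. Each of the 9 groups had 3 replicates, which gave 27 libraries, 9 with shCTRL and 18 with a SIRT3 shRNA. A group is 1 line with 1 hairpin. The study states that knockdown was done in replicates in each line, and nothing in the labels says that these were separate cultures. The p-values therefore measure the spread between these libraries, which may be technical.

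mTORC1 is a kinase complex of MTOR with RPTOR, its substrate-binding subunit, that turns on protein synthesis and holds back autophagy when amino acids, energy and growth factors are plentiful. The amino acid branch acts through the Rag GTPases at the lysosome, where sestrins bind the GATOR2 complex and restrain it, SESN2 as a sensor of leucine. The growth factor and stress branch acts through the TSC1-TSC2 complex, which switches off the small GTPase RHEB, the direct activator of mTORC1. DDIT4 (REDD1) works through TSC1-TSC2 to lower mTORC1 activity, and DEPTOR binds MTOR itself as an inhibitor. SESN2 and DDIT4 are known target genes of ATF4, the transcription factor of the amino acid and integrated stress response, and SESN1 and SESN3 are known as targets of p53 and of FOXO factors.

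Levels are given in the deposited units, which are proportional to CPM: each value is a whole number of reads scaled by a single factor per library, is not divided by gene length and differs from CPM by the same constant in every library. Each library held from 28694398 to 53405456 reads on listed genes, and 1 unit stood for between 63.6 and 120.3 reads. SIRT3 lay between 9.14 and 16.4 units in the 9 shCTRL libraries, between 1.06 and 2.79 with shSIRT3-1 and between 2.84 and 6.24 with shSIRT3-2, and no knockdown library overlapped the controls of its line. The B-cell markers MS4A1, CD79A, CD79B and PAX5 were at 135.9 units or more in all 27 libraries, and CD22 reached down to 4.55 units in HBL1 and 9.26 in Karpas422. Of the T-cell markers, CD3G was at 17.6 to 41.4 units in Karpas422, where CD3D was at 1.59 units or less and CD2 at 0.018 or less. HBL1 shSIRT3-1 replicate 3 stood apart, with 14.9% of the 13076 tested genes over 2-fold away from the mean of the other replicates of its group, against at most 4.57% in any other library. OCI-Ly1 shCTRL replicate 2 stood apart on a narrower set of genes, which includes SESN2 and is described with it.

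Fitted over the 3 lines together, SESN2, DDIT4 and DEPTOR were called lower with both SIRT3 shRNAs, and all 3 are negative regulators of mTORC1. In OCI-Ly1 alone SESN2 and DDIT4 were not called, and DEPTOR passed the filter of a single line only in Karpas422. Calls required more than a 1.5-fold change together with an adjusted p below 0.05 (Benjamini-Hochberg) from limma on log2(value + 0.1), with a term for the line. All 10 genes passed the filter of at least 1 unit in at least 3 libraries. With shSIRT3-1, 3 of the 10 were called lower, where 9.09% of all tested genes were, and 0 higher, where 3.92% were. With shSIRT3-2, 3 were again lower against 10.2% of all tested genes, and 0 higher against 3.29%. Called lower with both were 3 of the 10 and 3.98% of the 13076. The median log2 fold change of the 10 was 0.12 with shSIRT3-1 and −0.01 with shSIRT3-2, against −0.05 and −0.03 over all tested genes. The other 7 members stayed under the thresholds over the 3 lines, so the set did not move as a whole.

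**Figure D1:**
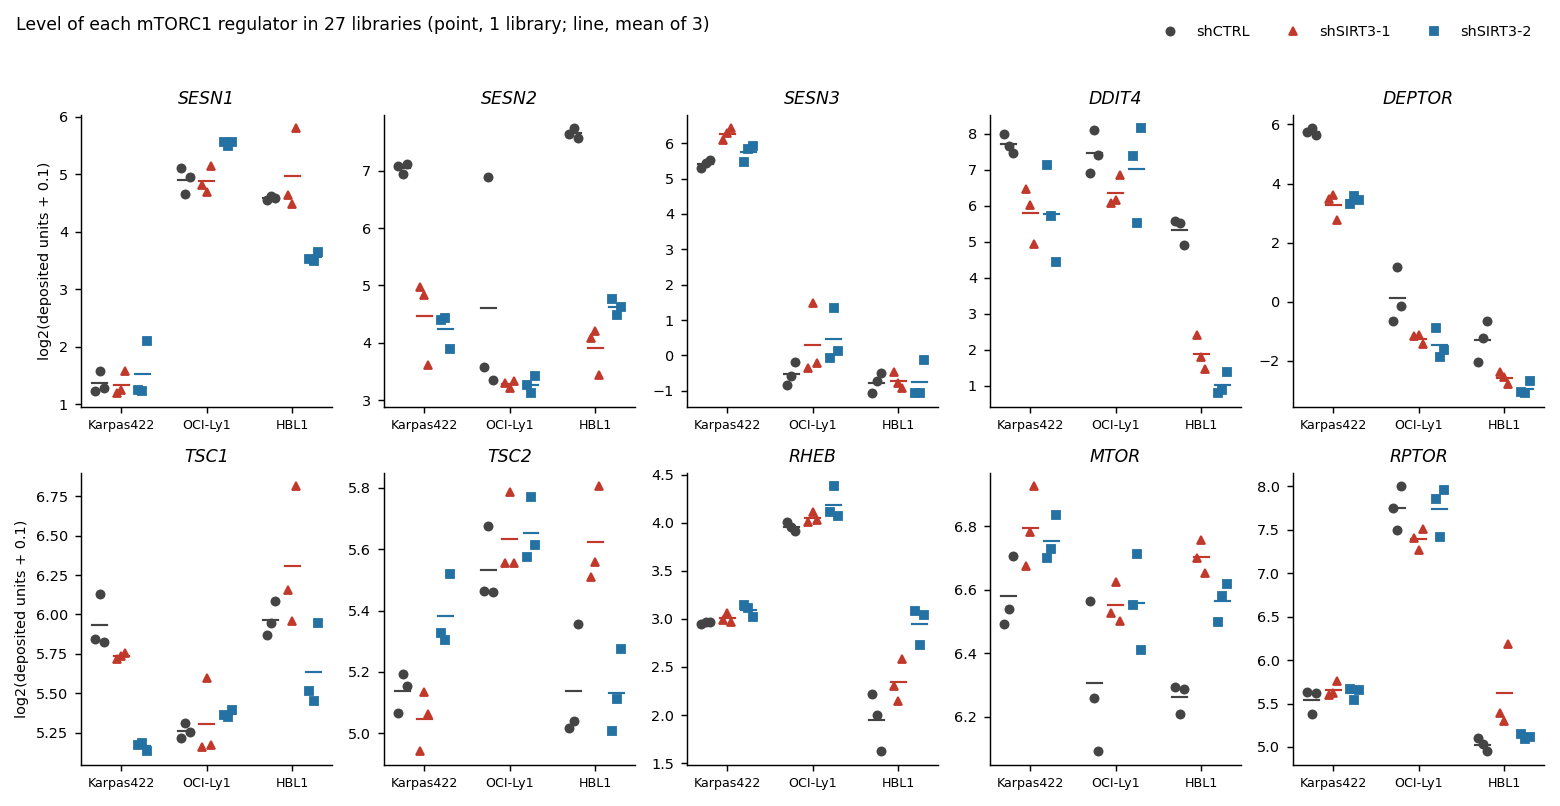
Level of each of the 10 mTORC1 regulators as log2(value + 0.1), with 1 point per library and a line at the mean of the 3 replicates, by cell line and shRNA. SESN2, DDIT4 and DEPTOR lie lower with both SIRT3 shRNAs in Karpas422 and HBL1, and 1 of the 3 OCI-Ly1 shCTRL libraries is far above the others for SESN2, at 119 units.

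SESN2 lies on chromosome 1 of hg19, from 28586029 to 28609002 on the plus strand. Because SESN2 and DDIT4 fell together and are known targets of ATF4, the stretch from 2000 bases before to 500 bases after the transcript start was read for the C/EBP-ATF response element TGATGNAA on both strands. The element was present at 27.1% of the 19806 coding-gene starts searched in the same way, and at 4 of the 9 members searched (DEPTOR was not analysed here). SESN2 has 1 match, 296 bases before its start on the minus strand, within chr1:28585722-28585751, shown here 5′ to 3′ with the element in capitals.
SESN2: ttagggttgcgTGATGAAAagggacttcac
A match is a run of letters, and binding was not measured.

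In HBL1, SESN2 was at 198, 214 and 190.1 units with shCTRL, at 16.9, 18.3 and 10.8 with shSIRT3-1 and at 27.1, 22.2 and 24.7 with shSIRT3-2. In Karpas422 it was at 135, 122.98 and 138 units with shCTRL, at 31.3, 28.3 and 12.1 with shSIRT3-1 and at 21.1, 21.4 and 14.8 with shSIRT3-2. All 12 knockdown libraries of these lines lay below all of their controls, and the fall left 7.51% and 12.3% of the control level in HBL1 and 16.8% and 14.3% in Karpas422. The log2 fold changes in HBL1 were −3.74 (SE 0.19, limma adjusted p = 1.3e-05) with shSIRT3-1 and −3.02 (SE 0.19, adjusted p = 3.9e-05) with shSIRT3-2. In Karpas422 they were −2.57 (SE 0.30, limma adjusted p = 4.6e-04) and −2.80 (SE 0.30, adjusted p = 2.9e-04).

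OCI-Ly1 gave another picture. SESN2 was at 11.9, 119 and 10.1 units in its 3 shCTRL libraries, at 9.75, 9.23 and 10.05 with shSIRT3-1 and at 9.56, 8.60 and 10.6 with shSIRT3-2. A single control library, replicate 2, came close to the lowest Karpas422 control, and the other control libraries were close to the knockdown libraries. The same library was high in the summed level of 12 known ATF4 targets, at 1806 units against 422 and 350.3 in the other OCI-Ly1 controls and 252 to 317 in the 6 OCI-Ly1 knockdown libraries. Over all tested genes it did not stand apart, with a median absolute log2 difference of 0.20 from its group, against 0.22 and 0.20 for the other controls. The change of SESN2 in OCI-Ly1 alone was not called, at log2 fold changes of −1.32 (SE 0.74, limma adjusted p = 0.28) and −1.34 (SE 0.74, adjusted p = 0.26), and without that library the values were −0.18 (adjusted p = 0.43) and −0.19 (adjusted p = 0.37).

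**Figure D2:**
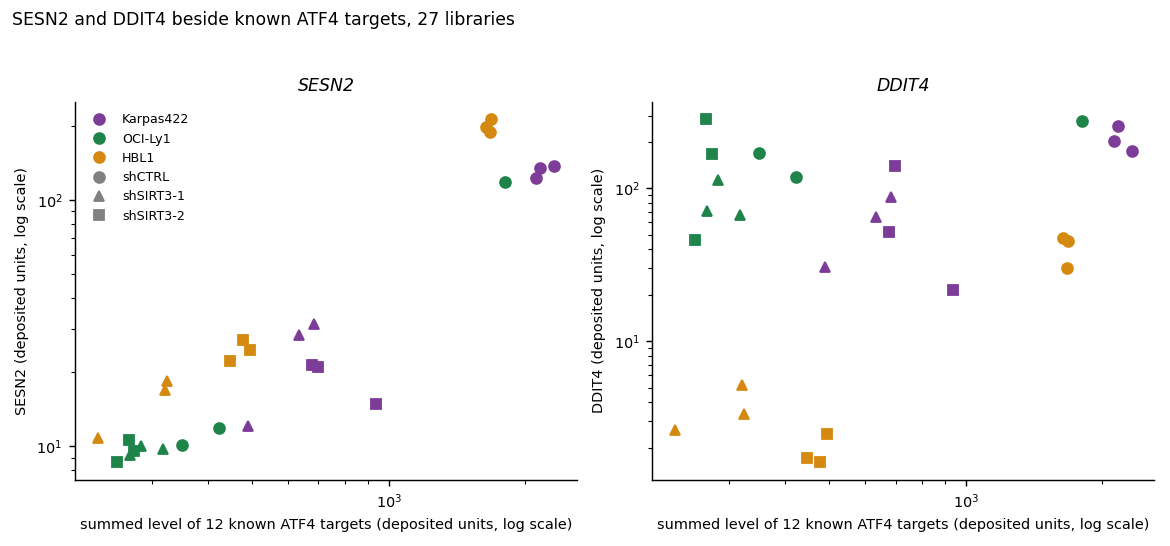
Level of SESN2 (left) and DDIT4 (right) against the summed level of 12 known ATF4 targets, both in deposited units on log scales, in each of the 27 libraries, with lines by colour and shRNAs by marker. The control libraries sit at the right, between 1637 and 2321 units, except 2 OCI-Ly1 controls at 350.3 and 422, and the points share library depth and scaling.

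Over the 3 lines, SESN2 fell by 2.54 on the log2 scale with shSIRT3-1 (SE 0.36, limma adjusted p = 5.9e-06) and by 2.39 with shSIRT3-2 (SE 0.36, adjusted p = 1.5e-05), and it was below the control mean of its line in 18 of 18 knockdown libraries, as were 5.79% of all tested genes. Without OCI-Ly1 shCTRL replicate 2 the SESN2 log2 fold changes were −2.33 and −2.18 (limma adjusted p = 1.4e-05 and 3.4e-05). Whether the response differed between the lines rested on that library. The limma F test on the interaction of line and shRNA gave an adjusted p of 0.087 with it and 5.4e-06 without it. In bulk RNA, a lower level in every cell and fewer cells with the transcript cannot be told apart.

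DDIT4, a short gene on chromosome 10 from 74033678 to 74035794 on the plus strand, has 4 matches to the response element between 942 and 1169 bases before its start. TSC1 and TSC2, which were not called over the 3 lines, have 1 match each, 1150 and 110 bases before their starts. They are shown 5′ to 3′ on the strand that carries the element, in capitals, for the windows chr10:74032498-74032527 (plus), chr10:74032519-74032548 (minus), chr10:74032663-74032692 (plus), chr10:74032725-74032754 (plus), chr9:135821135-135821164 (minus) and chr16:2097865-2097894 (plus) of hg19.
DDIT4, 1169 bases before: ccctgggcatcTGATGTAAgtttggctccc
DDIT4, 1148 bases before: caggaggacccTGATGGAAgagggagccaa
DDIT4, 1004 bases before: ccccgcctgaaTGATGAAAcacgggatggc
DDIT4, 942 bases before: gtcctcggtccTGATGCAAccgtctggatc
TSC1: ttctattaggtTGATGCAAaagtcatcgcg
TSC2: gccccgtcacgTGATGCAAggatcgccggc
The element was thus found at members that fell and at members that were not called, and no match was found at SESN1, SESN3, RHEB, MTOR or RPTOR in this window.

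DDIT4 fell most in HBL1, where it was at 47.7, 45.3 and 30.1 units with shCTRL, at 5.23, 3.37 and 2.65 with shSIRT3-1 and at 1.62, 1.74 and 2.48 with shSIRT3-2. These groups did not overlap, and 9.19% and 4.99% of the control level were left. In Karpas422 DDIT4 was at 256, 203 and 177 units with shCTRL, at 87.9, 65.1 and 30.5 with shSIRT3-1 and at 139.5, 51.8 and 21.6 with shSIRT3-2. Both knockdown groups lay below the controls, with a spread between replicates wider than in HBL1. In OCI-Ly1 DDIT4 was at 119, 275 and 171 units with shCTRL, at 67.2, 71.6 and 114 with shSIRT3-1 and at 168, 46.0 and 285 with shSIRT3-2. The shSIRT3-1 libraries were all below the controls, and the shSIRT3-2 libraries reached from below the lowest to above the highest control.

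The log2 fold changes of DDIT4 were −3.44 (SE 0.28, limma adjusted p = 9.5e-05) and −4.32 (SE 0.28, adjusted p = 4.5e-05) in HBL1 with shSIRT3-1 and shSIRT3-2, and −1.90 (SE 0.58, adjusted p = 0.031) and −1.96 (SE 0.58, adjusted p = 0.029) in Karpas422. In OCI-Ly1 they were −1.11 (SE 0.57, limma adjusted p = 0.24) and −0.45 (SE 0.57, adjusted p = 0.64) and were not called. Over the 3 lines DDIT4 had log2 fold changes of −2.15 (SE 0.44, limma adjusted p = 4.1e-04) and −2.24 (SE 0.44, adjusted p = 3.0e-04), and the lines differed in how far it moved (limma F test, adjusted p = 0.010). Without the line HBL1 the value with shSIRT3-2 was −1.20 (limma adjusted p = 0.056) and the call was lost. The Karpas422 calls were lost without any 1 of the 3 controls or without replicate 2 or 3 of the knockdown group compared, without a filter on low values (adjusted p = 0.056 and 0.053) and, with shSIRT3-2, in the edgeR test on reads (0.065).

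DEPTOR, on chromosome 8 from 120885957 to 121063157 on the plus strand, was expressed in Karpas422 and hardly in the other lines. In Karpas422 it was at 52.9, 58.6 and 49.8 units with shCTRL, at 11.04, 12.2 and 6.67 with shSIRT3-1 and at 9.92, 11.9 and 10.8 with shSIRT3-2, and the groups did not overlap. The log2 fold changes were −2.46 (SE 0.20, limma adjusted p = 9.4e-05) and −2.30 (SE 0.20, adjusted p = 7.8e-05), which left 18.2% and 20.3% of the control level. In OCI-Ly1 DEPTOR was at 0.538, 2.15 and 0.806 units with shCTRL and between 0.176 and 0.435 in the 6 knockdown libraries, and in HBL1 at 0.142, 0.330 and 0.536 with shCTRL and between 0.017 and 0.093 with a SIRT3 shRNA. These levels rest on 2 to 248 reads per library and did not pass the filter in either line alone, though the knockdown libraries lay below the controls in both. Over the 3 lines the log2 fold changes were −1.70 (SE 0.22, limma adjusted p = 2.8e-06) and −1.84 (SE 0.22, adjusted p = 1.3e-06), on a scale where the pseudocount of 0.1 shrinks changes at such low levels. The highest OCI-Ly1 value was again in shCTRL replicate 2, and the limma F test for a difference between lines gave an adjusted p of 0.24 with it and 0.035 without it. DEPTOR also passed that F test with a pseudocount of 1 (limma adjusted p = 2.8e-05) and under quantile normalization (0.017), so whether its response differed depends on the processing.

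**Figure D3:**
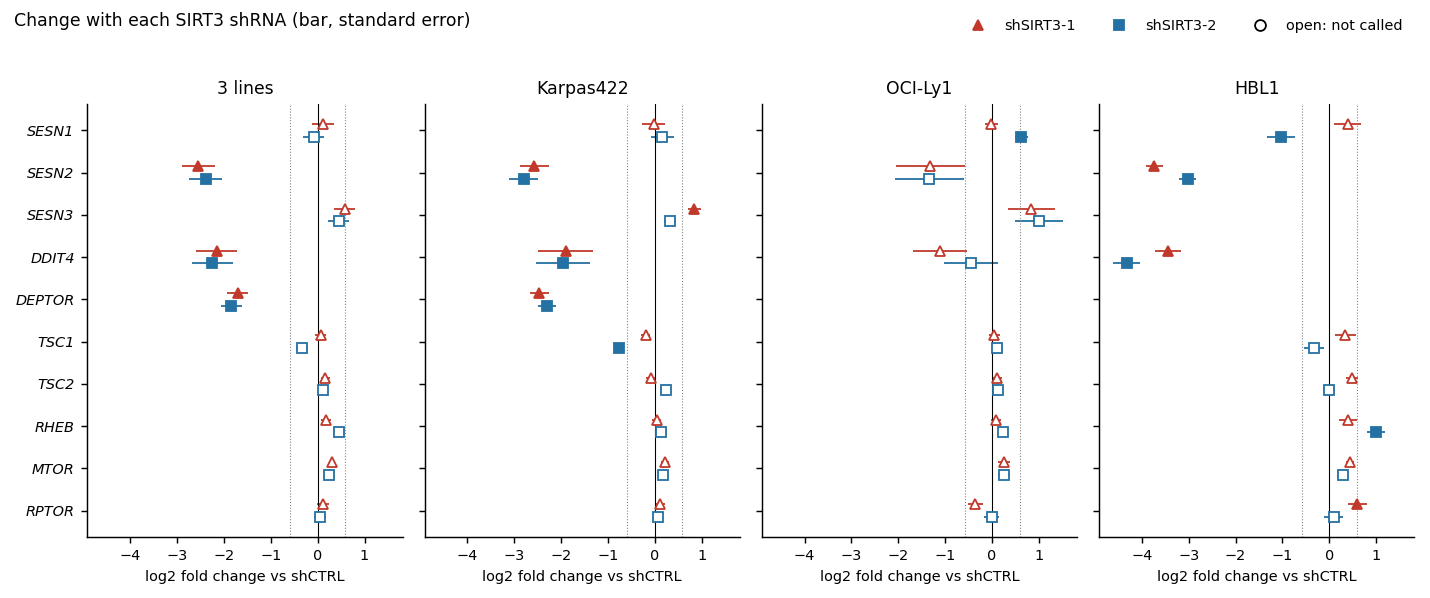
Log2 fold change of each member with shSIRT3-1 and shSIRT3-2 against shCTRL over the 3 lines and in each line, on log2(value + 0.1), with bars of 1 standard error, filled markers for called genes and dotted lines at 1.5-fold. SESN2 and DDIT4 are far below 0 in HBL1 at −3.02 to −4.32, while MTOR lies above 0 in every comparison and under 1.5-fold. A gene that did not pass the filter in a line is not drawn there.

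The other sestrins did not follow SESN2. SESN1, on chromosome 6 from 109305512 to 109416049 on the minus strand, moved in opposite directions in OCI-Ly1 and HBL1 with the same hairpin. In OCI-Ly1 SESN1 was at 34.4, 25.2 and 30.9 units with shCTRL, at 28.1, 25.9 and 35.4 with shSIRT3-1 and at 47.2, 44.8 and 47.0 with shSIRT3-2. In HBL1 it was at 23.3, 24.5 and 24.0 units with shCTRL, at 24.98, 22.2 and 55.8 with shSIRT3-1 and at 11.4, 11.2 and 12.4 with shSIRT3-2. The shSIRT3-2 libraries were all above the controls in OCI-Ly1 and all below them in HBL1, and the value of 55.8 is that of HBL1 shSIRT3-1 replicate 3. The log2 fold changes with shSIRT3-2 were 0.63 in OCI-Ly1 (SE 0.14, limma adjusted p = 0.028) and −1.03 in HBL1 (SE 0.29, adjusted p = 0.025), and the responses differed between the lines (limma F test, adjusted p = 0.0010, and 2.0e-04 without HBL1 shSIRT3-1 replicate 3). Both calls are close to the threshold, since the OCI-Ly1 call was lost without any 1 of 5 of the 6 libraries compared (adjusted p up to 0.089) and in a single fit of all 9 groups (0.10), and the HBL1 call without any 1 of its 6 (up to 0.076). In Karpas422 SESN1 stayed between 2.19 and 4.18 units in all 9 libraries.

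SESN3, on chromosome 11 from 94898677 to 94965705 on the minus strand, was expressed in Karpas422, where it was at 39.6, 43.0 and 46.0 units with shCTRL, at 68.4, 77.5 and 85.9 with shSIRT3-1 and at 44.4, 56.8 and 60.6 with shSIRT3-2. The rise with shSIRT3-1 was 0.84 on the log2 scale (SE 0.13, limma adjusted p = 0.0015), without overlap, and the value with shSIRT3-2 was 0.32 (SE 0.13, adjusted p = 0.087), with overlap. The call with shSIRT3-1 was lost in a single fit of all 9 groups (limma adjusted p = 0.11). It was between 0.376 and 2.69 units in all 18 libraries of OCI-Ly1 and HBL1. Over the 3 lines SESN3 had log2 fold changes of 0.58 (SE 0.23, limma adjusted p = 0.046) and 0.45 (SE 0.23, adjusted p = 0.12), and the first was just under the fold threshold. It crossed that threshold in 10 alternative fits, among them the edgeR test on reads.

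Among the subunits of the TSC complex, TSC1 (chromosome 9, 135766735 to 135822261, minus strand) was lower with shSIRT3-2 in Karpas422. It was at 57.4, 69.9 and 56.6 units with shCTRL, at 52.5, 53.2 and 54.0 with shSIRT3-1 and at 36.0, 36.3 and 34.97 with shSIRT3-2, and neither knockdown group reached the controls. The log2 fold change was −0.77 with shSIRT3-2 (SE 0.09, limma adjusted p = 4.4e-04) and −0.20 with shSIRT3-1 (SE 0.09, adjusted p = 0.12). In OCI-Ly1 TSC1 was at 37.2 to 39.6 units with shCTRL and at 35.6 to 48.3 with a SIRT3 shRNA, and in HBL1 at 58.5 to 67.8 and at 43.7 to 112, the 112 again in shSIRT3-1 replicate 3. The shSIRT3-2 libraries lay above the controls in OCI-Ly1, at 40.7 to 42.0 units. Neither line gave a call for TSC1, and the response differed between the lines (limma F test, adjusted p = 0.014).

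TSC2 (chromosome 16, 2097968 to 2139492, plus strand) was between 30.6 and 55.8 units in all 27 libraries. In HBL1 it was at 32.3, 32.8 and 40.9 units with shCTRL and at 45.4, 47.1 and 55.8 with shSIRT3-1, without overlap, and at 32.0, 34.5 and 38.6 with shSIRT3-2. Its log2 fold change with shSIRT3-1 in HBL1 was 0.49 (SE 0.13, limma adjusted p = 0.017), under the 1.5-fold threshold, and the response differed between the lines (limma F test, adjusted p = 0.0035). TSC2 shares 784 exon bases with PKD1 on the opposite strand, which had a median of 30.6 units. The counting is not stated to use strand, so reads of the pair cannot be told apart there.

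RHEB (chromosome 7, 151163098 to 151217206, minus strand), the GTPase that activates mTORC1, rose in HBL1 with shSIRT3-2, from 4.57, 3.90 and 2.98 units with shCTRL to 8.36, 6.51 and 8.13. With shSIRT3-1 it was at 4.83, 4.32 and 5.88 units, overlapping the controls. The log2 fold changes in HBL1 were 1.00 with shSIRT3-2 (SE 0.19, limma adjusted p = 0.0048) and 0.39 with shSIRT3-1 (SE 0.19, adjusted p = 0.13). In Karpas422 RHEB was at 7.62 to 7.74 units with shCTRL and 7.72 to 8.77 with a SIRT3 shRNA, and in OCI-Ly1 at 14.9 to 16.0 and 15.9 to 20.7, with no call in either. The shSIRT3-2 libraries were above all controls of their line in each of the 3 lines. Over the 3 lines the value with shSIRT3-2 was 0.45 (SE 0.11, limma adjusted p = 0.0019), below the fold threshold, and the response differed between the lines (limma F test, adjusted p = 0.0091).

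MTOR (chromosome 1, 11166592 to 11322613, minus strand), the kinase, was slightly higher in the knockdown libraries of each line. It was at 68.0 to 104 units in the 9 shCTRL libraries and at 85.0 to 122 in the 18 knockdown libraries, and 18 of 18 were above the control mean of their line, as were 3.87% of all tested genes. Its log2 fold changes with all 3 lines fitted were 0.30 (SE 0.06, limma adjusted p = 3.7e-04) and 0.24 (SE 0.06, adjusted p = 0.0027), below the 1.5-fold threshold, so MTOR was not called. In HBL1 all 6 knockdown libraries were above all 3 controls, at 100.6 to 108 units with shSIRT3-1 and 90.3 to 98.1 with shSIRT3-2 against 73.9 to 78.4. No difference between the lines was detected for MTOR (limma F test, adjusted p = 0.59).

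RPTOR (chromosome 17, 78518619 to 78940171, plus strand) rose in HBL1 with shSIRT3-1, from 34.3, 32.6 and 30.8 units to 41.8, 39.2 and 72.6, and was at 35.4, 34.1 and 34.6 with shSIRT3-2. The log2 fold change of 0.60 (SE 0.20, limma adjusted p = 0.045) was lost without HBL1 shSIRT3-1 replicate 3, when RPTOR had a log2 fold change of 0.32 (limma adjusted p = 0.012, below the fold threshold), and also without any 1 of 6 other libraries of the line. In Karpas422 RPTOR was at 41.4 to 53.9 units in all 9 libraries. In OCI-Ly1 it was at 181 to 256 units with shCTRL, at 155 to 182 with shSIRT3-1 and at 171 to 249 with shSIRT3-2, with no call. The response differed between the lines (limma F test, adjusted p = 0.023), and this call was lost without OCI-Ly1 shSIRT3-1 replicate 2, at 0.055.

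By line, 3 of 10 members were called lower with shSIRT3-1 in Karpas422 (11.5% of all tested genes) and 1 higher (4.45%), and with shSIRT3-2 4 were lower (9.44%) and 0 higher (5.55%). In OCI-Ly1, where 9 members were tested, shSIRT3-1 gave 0 lower (2.45%) and 0 higher (2.04%) by limma, and 0 had an unadjusted p under 0.05, and shSIRT3-2 gave 0 lower (4.26%) and 1 higher (2.15%). In HBL1, where 8 were tested, shSIRT3-1 gave 2 lower (18.8%) and 1 higher (8.83%), and shSIRT3-2 gave 3 lower (16.0%) and 1 higher (7.51%). All 3 knockdown libraries lay below all 3 controls for 4 members with each shRNA in Karpas422 (29.2% and 23.4% of all tested genes), for 3 and 1 in OCI-Ly1 (13.4% and 17.2%) and for 3 and 4 in HBL1 (29.7% and 34.0%). DEPTOR is counted among those below in each of the 6 groups. It did not pass the filter in OCI-Ly1 or HBL1 alone, where the knockdown libraries held 2 to 44 reads. Other members had all 3 knockdown libraries above all 3 controls. With shSIRT3-1 these were 1 (Karpas422), 0 (OCI-Ly1) and 3 (HBL1), and with shSIRT3-2 they were 2, 4 and 2. The matching shares of all tested genes are not given for this direction. In HBL1, the summed level of 4 epithelial or fibroblast markers was 17.65 to 22.65 units with shCTRL, 6.23 to 8.67 with shSIRT3-1 and 40.8 to 65.6 with shSIRT3-2, and that of 4 activated B-cell markers was 1230 to 1329, 352 to 1062 and 569 to 753. The sum of 4 germinal center markers lay below the controls with both shRNAs in each line, at 922 to 1061 with shCTRL, 756 to 806 and 581 to 699 in Karpas422, at 481 to 533.5, 446 to 472 and 361 to 433 in OCI-Ly1, and at 154 to 181, 116 to 127 and 63.7 to 73.6 in HBL1. In HBL1 this sum was nearly all BCL6 (61.7 to 180 units), with MME, LMO2 and MYBL1 at 1.72 units or less. The epithelial or fibroblast sum there was nearly all COL1A2 (1.72 to 62.0) and EPCAM (3.50 to 7.27). CCND2 (126 to 816) was the widest-ranging part of the activated B-cell sum in HBL1. In Karpas422 the sum of the 5 B-cell markers named above was 1536 to 2156 with shCTRL, 1783 to 2339 with shSIRT3-1 and 895 to 1356 with shSIRT3-2, and that of 4 T-cell markers was 37.5 to 43.3, 18.5 to 31.7 and 30.4 to 40.2. The part of these markers in the results was not tested.

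When shSIRT3-2 was compared with shSIRT3-1 over the 3 lines, 0 of the 10 members were called by limma, against 11.3% of all tested genes, and 0 with the edgeR quasi-likelihood test on reads, while 2 (TSC1 and RHEB) had an unadjusted limma p under 0.05. The difference was 0.16 for SESN2 (SE 0.36), −0.09 for DDIT4 (SE 0.44) and −0.14 for DEPTOR (SE 0.22) on the log2 scale, although SIRT3 itself was 1.08 higher (SE 0.17) with shSIRT3-2. TSC1 was 0.39 lower on that scale (SE 0.12, limma adjusted p = 0.015), below the fold threshold. Within HBL1, a comparison added after its values were seen, 5 of 8 members were called between the shRNAs, against 27.9% of all tested genes, and 3 of 8 without HBL1 shSIRT3-1 replicate 3. These 3 were SESN1 (log2 fold change of shSIRT3-2 against shSIRT3-1 −1.42, limma adjusted p = 0.0070, and −1.01 without that library), DDIT4 (−0.88, adjusted p = 0.036, and −1.10) and RHEB (0.61, adjusted p = 0.036, and 0.72). A difference between the lines in response was called for 6 of the 10 members by the limma F test (SESN1, DDIT4, TSC1, TSC2, RHEB and RPTOR), a share to be read against 41.8% of all tested genes. With a replicate block it was 6 of 10 against 58.8%.

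In the shCTRL libraries, also of day 8, the lines differed in their most abundant members. Differences between lines were common, called for 50.8% to 54.6% of all tested genes per pair of lines. Per kilobase of transcript, DDIT4 was the most abundant member in Karpas422 at 121 ± 22.9 units per kb (SD, n = 3) and in OCI-Ly1 at 108 ± 45.6, and SESN2 in HBL1 at 57.9 ± 3.47. Next in Karpas422 came SESN2 at 38.2 ± 2.31 and DEPTOR at 20.9 ± 1.74 units per kb, in OCI-Ly1 RPTOR at 31.8 ± 5.48, and in HBL1 DDIT4 at 23.5 ± 5.46. MTOR was much alike in the 3 lines, at 10.98 ± 0.87, 9.14 ± 1.56 and 8.80 ± 0.28 units per kb in Karpas422, OCI-Ly1 and HBL1. SESN1 was the lowest member in Karpas422 at 0.44 ± 0.06, and SESN3 was the lowest in OCI-Ly1 and HBL1 at 0.063 ± 0.017 and 0.052 ± 0.012. SESN2 in OCI-Ly1 was spread from 2.92 over 3.42 to 34.35 units per kb, the last in replicate 2.

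**Figure D4:**
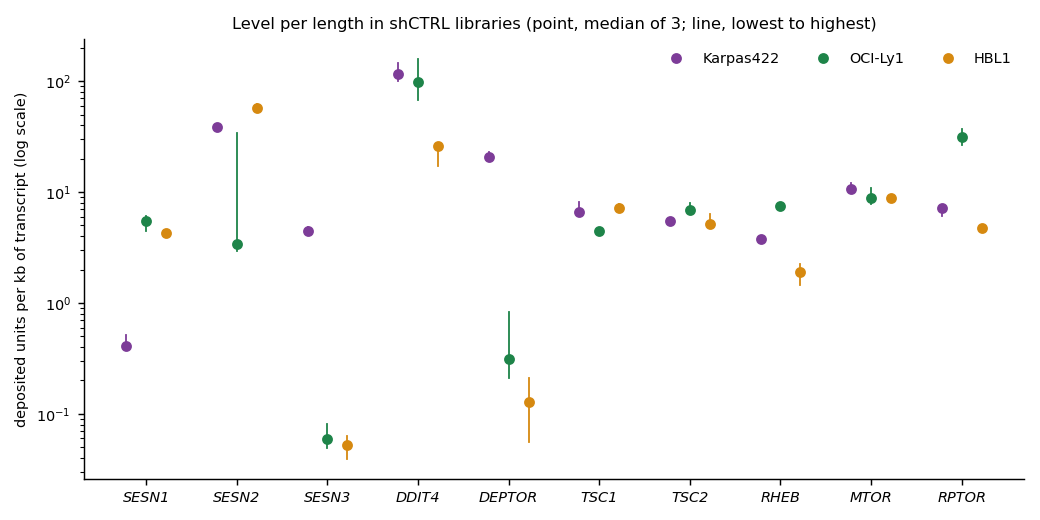
Level of each member in the 3 shCTRL libraries of each line, in units per kilobase of transcript on a log scale, with the median as a point and a line from the lowest to the highest library. SESN1 is lowest in Karpas422, at 0.44 units per kb on average. DEPTOR and SESN3 are higher in Karpas422 than in the other lines, and RPTOR is higher in OCI-Ly1, at 31.8 on average, than in the others.

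In the control libraries, 4 members were lower and 1 higher in HBL1 than in Karpas422 (54.6% of all tested genes were called in either direction), 4 lower and 2 higher in HBL1 than in OCI-Ly1 (54.6%), and 3 lower and 4 higher in Karpas422 than in OCI-Ly1 (50.8%). SESN1 was 3.22 higher in HBL1 than in Karpas422 on the log2 scale (SE 0.15, limma adjusted p = 1.2e-08) and 3.54 lower in Karpas422 than in OCI-Ly1 (log2 fold change −3.54, SE 0.15, adjusted p = 8.5e-09), while HBL1 and OCI-Ly1 did not pass the test (−0.32, SE 0.15, adjusted p = 0.077). SESN3 was instead highest in Karpas422, 5.96 higher in Karpas422 than in OCI-Ly1 (SE 0.21, limma adjusted p = 2.4e-09), and so was DEPTOR, 5.62 higher (SE 0.45, adjusted p = 1.4e-06). DEPTOR was lower in HBL1 than in OCI-Ly1 (log2 fold change −1.43, SE 0.45, limma adjusted p = 0.016), a call lost without HBL1 shCTRL replicate 1 (0.062). RHEB ran from OCI-Ly1 through Karpas422 (log2 fold change −0.998, SE 0.16, limma adjusted p = 3.1e-04) to HBL1 (−1.01 against Karpas422, SE 0.16, adjusted p = 2.4e-04). RPTOR was 2.21 lower in Karpas422 than in OCI-Ly1 (log2 fold change −2.21, SE 0.14, limma adjusted p = 1.7e-07), and HBL1 was below Karpas422 by 0.51 (log2 fold change −0.51, SE 0.14, adjusted p = 0.0063), under the fold threshold. DDIT4 was lower in HBL1 than in Karpas422 (log2 fold change −2.38, SE 0.29, limma adjusted p = 3.0e-05), and no difference was detected between Karpas422 and OCI-Ly1 (0.24, SE 0.29, adjusted p = 0.49). TSC1 was higher in HBL1 (0.70, SE 0.11, limma adjusted p = 2.1e-04) and in Karpas422 (0.67, SE 0.11, adjusted p = 3.4e-04) than in OCI-Ly1, and the latter fell under the fold threshold with both other scalings, in edgeR and without Karpas422 shCTRL replicate 2. SESN2 was higher than in OCI-Ly1 by 3.04 in HBL1 (SE 0.72, limma adjusted p = 0.0036) and by 2.44 in Karpas422 (SE 0.72, adjusted p = 0.013), and the latter was lost in edgeR (0.12) and without OCI-Ly1 shCTRL replicate 1 (0.055) or 3 (0.058). Without OCI-Ly1 shCTRL replicate 2 SESN2 was higher by 4.18 in HBL1 (limma adjusted p = 3.0e-09) and by 3.58 in Karpas422 (adjusted p = 1.4e-08). TSC2 and MTOR were called in no pair of lines.

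The wider pathway was followed in 59 further genes, of which 56 were tested. With shSIRT3-1, 7 were called lower and 2 higher, with shSIRT3-2 8 lower and 4 higher, and with both 6 lower and 1 higher. The shares called lower were 12.5% and 14.3% with the respective shRNA and 10.7% with both, beside 9.09%, 10.2% and 3.98% of all tested genes, and the shares called higher were 3.57% and 7.14%, beside 3.92% and 3.29%. The median of the 56 log2 fold changes was 0.04 and −0.01. The subunits of mTORC1 and mTORC2 other than MTOR, RPTOR and DEPTOR (5 tested), GATOR1 (3), GATOR2 (5) and the amino acid sensors other than sestrins (3) gave 0 calls by limma with either shRNA, although some passed on adjusted p alone at smaller folds, such as the GATOR2 subunit MIOS (−0.38 and −0.34), named after its values were seen. Of 10 genes listed as outputs of mTORC1, 4 were lower with both, beside 3.98% of all tested genes. These are RNA levels, and mTORC1 activity was not measured. EIF4EBP1, which encodes a repressor of cap-dependent translation that mTORC1 inactivates, had log2 fold changes of −1.76 (SE 0.32, limma adjusted p = 1.1e-04) and −1.60 (SE 0.32, adjusted p = 3.3e-04). EIF4EBP1 was called with both shRNAs in Karpas422 and HBL1, and not in OCI-Ly1 (−0.64 and −0.73, limma adjusted p = 0.27 and 0.20). Its OCI-Ly1 controls were at 24.8, 58.6 and 20.1 units, the highest in replicate 2. The other 3 outputs, named after their values were seen, were GRB10 (−1.49 and −1.39), the autophagy kinase ULK1 (−1.01 and −0.79) and EIF4EBP3 (−0.87 and −0.92). Their responses differed between the lines (limma F test, adjusted p = 6.4e-06, 0.0013 and 0.028 in that order), as did 41.8% of all tested genes. Also named after their values were seen, the KICSTOR subunit KICS2 (listed as C12orf66, −0.82 and −0.93) and the AMPK subunit PRKAG2 (−0.79 and −0.62) were lower with both, and the Ragulator subunit LAMTOR1 was higher (0.62 and 0.81).

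**Figure D5:**
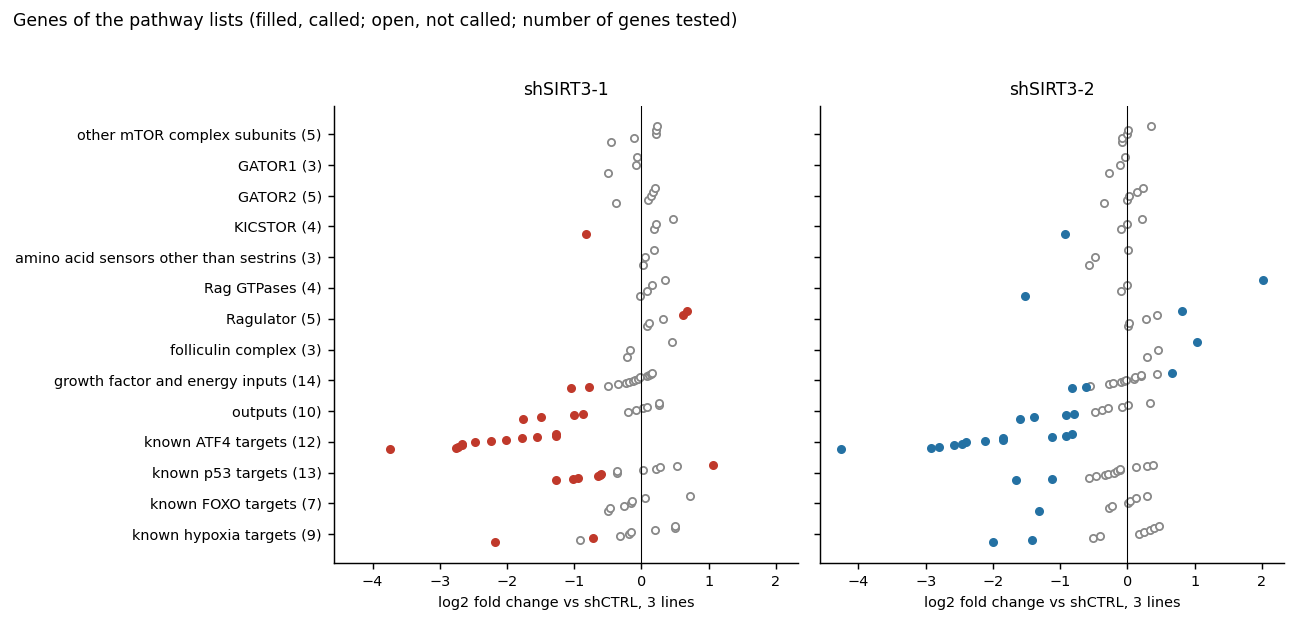
Log2 fold change against shCTRL over the 3 lines for each gene of the pathway lists, with shSIRT3-1 on the left and shSIRT3-2 on the right, filled points for called genes and the number of genes tested in brackets. The 12 known ATF4 targets lie to the left of 0 with both shRNAs, and most genes of the other lists lie near 0.

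Counts over the 3 lines are set here beside all tested genes, of which 9.09% were called lower with shSIRT3-1 and 10.2% with shSIRT3-2. With the respective shRNA 3.92% and 3.29% were higher, and 3.98% were lower with both. Of the genes that known upstream regulators of the sestrins and DDIT4 act on, the 12 known ATF4 targets were all called lower with both shRNAs. Their median log2 fold changes were −2.35 and −2.26, and SESN2 had −2.54 and −2.39. The study had already reported a fall of ATF4 target genes in these same data, so this outcome was known beforehand. Whether any of these regulators caused the changes of SESN2 or DDIT4 was not tested. Among the ATF4 targets of largest mean change were CHAC1, a glutathione-degrading enzyme (−3.74 and −4.25), the transcription factors CEBPB (−2.67 and −2.92) and ATF3 (−2.73 and −2.80), and the serine synthesis enzymes PHGDH (−2.66 and −2.41) and PSAT1 (−2.47 and −2.58). Cystine transporter SLC7A11 (−2.76 and −1.85), asparagine synthetase ASNS (−2.01 and −2.46) and the pseudokinase TRIB3 (−1.78 and −2.11) followed. Of 13 known p53 targets 6 were lower and 1 higher with shSIRT3-1, and 2 were lower with shSIRT3-2. Both of these were lower with both shRNAs, and they are the cell cycle inhibitor CDKN1A (−1.27 and −1.66) and the cell death gene BBC3 (−0.94 and −1.12), named after their values were seen. Of 7 known FOXO targets 0 were called with shSIRT3-1 by limma and 1 was lower with shSIRT3-2. Of 9 known hypoxia targets 2 were lower with each shRNA and 1 with both, the growth factor VEGFA (−2.18 and −1.99), and DDIT4 is also known to respond to hypoxia. VEGFA was called in HBL1 (−2.54 and −2.46) and not in Karpas422 (limma adjusted p = 0.083 and 0.068) or OCI-Ly1 (0.28 and 0.54). By line, the ATF4 targets called lower were 12 of 12 and 10 of 12 in Karpas422, beside 11.5% and 9.44% of all tested genes. In HBL1 they were 12 and 11 of 12 (18.8% and 16.0%), and in OCI-Ly1 0 and 2 of 11 (2.45% and 4.26%). The OCI-Ly1 counts include shCTRL replicate 2 among the controls, and CHAC1, for example, had log2 fold changes of −2.72 and −3.56 there (SE 1.10, limma adjusted p = 0.15 and 0.070).

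After subtraction of each line's mean, SESN2 went with DEPTOR (Pearson r = 0.86) and DDIT4 (r = 0.83) over the 27 libraries, and DDIT4 with DEPTOR (r = 0.71), while MTOR ran against DDIT4 (r = −0.77). The points include both control and knockdown libraries, which differ in all 3 falling genes, and each library has its own depth and scaling. The genes most like SESN2 were HAX1 (r = 0.98), PSAT1 (r = 0.98) and NFE2L1 (r = 0.98). For DDIT4 they were KDM6B (r = 0.92), MXI1 (r = 0.90) and CBX8 (r = 0.90), and for DEPTOR they were RNF187 (r = 0.93), TMEM267 (r = 0.93) and TSEN15 (r = 0.92).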

How the data were processed

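Gene-level RNA-seq values of 27 libraries were analysed. According to the study's methods and the labels, RNA libraries were sequenced as paired ends, reads were aligned to hg19 with STAR and counted over RefSeq genes with Rsubread (versions and strand setting are not given in the sources used here). The values deposited by the authors are named FPKM. All of them (100% within 0.001 read) are whole multiples of 1 step per library, with the same constant of 1.766 for every gene in place of gene length, so the deposited values are CPM divided by that constant, which the authors made by scaling read counts to each library's total, and levels are given in these units. Whole reads were recovered from these steps. Listed genes held 71.2% to 80.5% of the total that the steps imply with the larger constant, a share that depends on this choice. Fold changes are unaffected by the constant, and levels between genes were compared after division by the length of the canonical transcript (GENCODE 44 on hg19), which for DDIT4 is the longest coding one.

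Values were tested with limma 3.58.1 in R 4.3.3 (trend) on log2(value + 0.1), over genes with at least 1 unit in at least 3 libraries of the fit, with Benjamini-Hochberg adjustment over all tested genes. The design was additive for line and shRNA over 27 libraries, each line alone (9 libraries), the interaction of line and shRNA (F test of 4 terms), and the lines in shCTRL. Calls needed a fold above 1.5 and an adjusted p under 0.05, or the latter alone for the F test. This differs from the study's count model because the deposited values are not counts. edgeR 4.0.16 on recovered reads was an alternative, beside pseudocounts of 1 and 0.01, no filter, quantile and median-ratio scaling, a replicate block, a single fit of 9 groups, and leaving out each library or line. Python 3.11.15, numpy 2.4.6, pandas 2.3.3 and matplotlib 3.10.9 were used. The additive fit, tested on simulated data with 12886 genes fitted, recovered 192 of 200 genes changed 2-fold with shSIRT3-1 and called 0 of 12686 unchanged ones. These data had a single dispersion of 0.03, the same change in every line and no shared replicate effect, so they were simpler than the real libraries. The fits of single lines recovered 87.8% to 93%. The F test recovered 58.5% of genes changed in HBL1 alone.

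The members and gene lists were chosen with earlier results of these data known. By rule, genes beyond the members were named as the 10 of largest mean change among list genes called with both shRNAs, or as the 3 of most like pattern per called member. Other list genes fall outside this rule and are marked where they appear as named or described after their values were seen. Same-numbered replicates of a line deviated together, with a mean correlation of 0.32 over 27 pairs against −0.14 over 54 other pairs. The deviations were taken from the mean of each group of 3. The other pairs are therefore pulled below 0 when same-numbered pairs lie above it, and are no independent comparison. Every pair was above 0.1 in OCI-Ly1 and HBL1 but not in Karpas422, where the lowest was 0.014. Element matches were read from the hg19 sequence.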

Additional observations from a re-analysis of the deposited data

Results flagged for a closer look

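The response to the SIRT3 shRNAs differed between the lines for 6 members by the limma F test on the interaction of line and shRNA, with Benjamini-Hochberg adjustment over all tested genes. The adjusted p was 0.00101 for SESN1, 0.0102 for DDIT4, 0.0136 for TSC1, 0.00354 for TSC2, 0.00907 for RHEB and 0.0228 for RPTOR. SESN1 rose in OCI-Ly1 and fell in HBL1 with shSIRT3-2, and DDIT4 fell in HBL1 and Karpas422 and was not called in OCI-Ly1. TSC1 fell in Karpas422 with shSIRT3-2, RHEB rose in HBL1 with shSIRT3-2, and TSC2 and RPTOR were higher in HBL1 with shSIRT3-1, TSC2 below the fold threshold. Of all tested genes, 41.8% passed the same test, and 58.8% with a replicate block.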

How the results depend on the processing

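SESN2, DDIT4 and DEPTOR stayed called with both shRNAs over the 3 lines when any 1 library was left out and under each pseudocount, filter, scaling, tool and block tried. The exceptions came from leaving out a line, where DDIT4 with shSIRT3-2 lost its call without HBL1 and DEPTOR could not be tested without Karpas422. The count of members called with shSIRT3-2 went from 3 to 5 under quantile normalization, and that between the shRNAs from 0 to 1 without the line OCI-Ly1. In OCI-Ly1 the count with shSIRT3-1 went from 0 to 1 in 1 fit of all 9 groups, and that with shSIRT3-2 ranged from 0 to 1 when 1 library was left out. The fit with a replicate block gave counts of 3 and 3 over the 3 lines, 6 for the difference between lines (58.8% of all tested genes, against 41.8% without the block), and by line 4 and 4 (Karpas422), 0 and 1 (OCI-Ly1) and 3 and 4 (HBL1), and changed no other call. Over all genes, a pseudocount of 1 lowered the calls from 1701 to 1054 with shSIRT3-1, from 1760 to 1036 with shSIRT3-2 and from 1480 to 862 between the shRNAs. Leaving out 1 library moved the OCI-Ly1 counts of 504 and 718 to between 37 and 1133 and between 118 and 1321. The causes were not tested. In HBL1 with shSIRT3-1 the median log2 fold change of all genes was −0.11 as deposited and 0.04 after quantile normalization, so small changes there depend on the scaling. Low reads limit DEPTOR outside Karpas422 and SESN3 outside Karpas422.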

Other observations

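Of the Rag GTPases, which carry the amino acid signal to mTORC1, RRAGC and RRAGD moved in opposite directions with shSIRT3-2, and both are described here after their values were seen. RRAGC was at 18.9 to 44.7 units in the 9 shCTRL libraries, at 22.2 to 45.7 with shSIRT3-1 and at 7.21 to 15.4 with shSIRT3-2. The shSIRT3-2 libraries lay below all others. The log2 fold change of RRAGC over the 3 lines was −1.52 (SE 0.10, limma adjusted p = 1.6e-10) with shSIRT3-2 and 0.09 (SE 0.10, adjusted p = 0.53) with shSIRT3-1, and the difference between the shRNAs was −1.61 (adjusted p = 2.6e-11). It was called with shSIRT3-2 in each line, at −1.44 (Karpas422), −1.22 (OCI-Ly1) and −1.91 (HBL1).

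RRAGD was at 2.60 to 6.42 units in the shCTRL libraries of OCI-Ly1 and HBL1, at 3.60 to 7.11 with shSIRT3-1 and at 8.38 to 17.2 with shSIRT3-2. In Karpas422 it was at 0.093 to 0.294 units with shCTRL and at 0.742 to 3.34 with shSIRT3-2, and did not pass the filter. Over the 3 lines the log2 fold change of RRAGD was 2.02 (SE 0.25, limma adjusted p = 1.4e-06) with shSIRT3-2 and 0.35 (SE 0.25, adjusted p = 0.27) with shSIRT3-1, and the difference between the shRNAs was 1.67 (adjusted p = 1.7e-05). SIRT3 itself was lower with shSIRT3-1 than with shSIRT3-2.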
